A study of Mus musculus with 12 samples.

Results

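The comparison described here is 2 h of RAF activation against no activation in mouse embryonic stem cells, followed across the genes that had enough counts to be tested, with weight on genes that fell and on pathways outside the usual lists of ERK targets. Its members are the 3 libraries taken at 2 h and the 3 untreated libraries, paired by clone, which are 6 of the 12 libraries of the series. Of 25897 gene symbols in the deposited count table, 14185 passed the filter on low counts and were tested. Every library was made from cells of the E14tg2a line (129SV background) that carry a construct named cRAF-ERT2. Untreated cells of clones a, b and c (n = 3) received no 4-hydroxytamoxifen (4OHT), and cells of the same clones (n = 3) received 250 nM 4OHT for 2 h. Both groups had grown with serum, LIF and 2 µM Chir99021, had spent 24 h with serum, LIF and 250 nM PD173074 in its place, and were given 5 mM ethynyl uridine during the last 15 min. The remaining 6 libraries are of the same clones at 1 and 4 h and are outside the comparison itself. They enter the filter on low counts, the scaling, the fit with its shared estimate of spread, and the abundance classes. With the 6 libraries of the comparison alone, 13867 genes passed the filter. A group is a model of RAF activation within limits: each letter is 1 clone, no group given only the carrier of 4OHT is among these samples, and the promoter that drives the construct is not given in the sources used here.

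In this kind of fusion protein the RAF kinase is joined to the hormone-binding domain of the oestrogen receptor, which holds it inactive until 4OHT binds. RAF phosphorylates MEK, MEK phosphorylates ERK, and ERK phosphorylates transcription factors such as ELK1, which sit with serum response factor on CArG sequences near immediate-early genes. Fibroblast growth factor receptors normally feed this cascade in embryonic stem cells, and PD173074 inhibits them, so both groups began from low receptor input. Signalling through ERK is known for moving embryonic stem cells away from the naive state. Pathways other than ERK also act in these cells, among them BMP through ID proteins, LIF through STAT3, and WNT, whose signal Chir99021 mimics by inhibiting GSK3.

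Libraries held 24213641 to 30173455 counts in untreated cells and 26622520 to 30564977 at 2 h, and values below are CPM, which are counts scaled to the total of their library, after TMM scaling, given in the order of clones a, b and c. Of 10 pluripotent stem cell markers all 10 were tested, 4 rose and 0 fell, beside 20.6% higher and 20% lower of all tested genes. With upper-quartile scaling 4 of them rose and 1 fell. Nanog was at 655, 717 and 725 CPM untreated against 565, 713 and 744 CPM at 2 h. Pou5f1 rose by 0.48 ± 0.07, adjusted p = 0.00049, and Zfp42 by 0.72 ± 0.07, adjusted p = 6.9e-05. Markers of other cells were low: of 10 feeder fibroblast markers 4 were tested, and their summed level over the list was 7.59 to 8.41 CPM in untreated cells and 11.3 to 18.95 CPM at 2 h. Within that list Twist1 rose by 2.89 and Col1a1 by 1.300 on the log2 scale, the latter with an adjusted p of 0.059 for Col1a1 without the clone block and 0.06 in a fit to the 6 libraries alone. Leaving out 1 library ended its call: Col1a1 without untreated clone b (adjusted p = 0.11) or untreated clone c (adjusted p = 0.064) or 2 h clone b (adjusted p = 0.14). Of 8 primitive endoderm markers, 2 fell and 0 rose, with summed levels of 8.16 to 20.2 CPM untreated and 7.54 to 18.7 CPM at 2 h. This share of falls, 25%, was near the 20% of all tested genes, and without the clone block 0 of them fell. These are bulk samples, in which a change in the number of cells of a type and a change in RNA per cell cannot be told apart.

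At 2 h, 2924 genes (20.6% of those tested) were higher and 2830 (20%) were lower than in untreated cells by edgeR's quasi-likelihood F test with clone as a block, at a Benjamini-Hochberg adjusted p of 0.05. Log2 changes below are 2 h minus untreated from this fit, with the SE after the ± sign, and adjusted p-values are from the same test. A change of at least 2-fold was reached by 375 of the higher genes (2.64%) and by 476 of the lower genes (3.36%). Which of these counts was larger depended on the setting. There were 300 higher and 281 lower without the clone block, 322 and 312 with a filter at 1 CPM in 3 libraries, 276 and 256 without clone b and 222 and 114 without clone c. Every 2 h library lay above every untreated library for 2716 genes (19.1%) and below for 2588 (18.2%). Genes that rose at least 2-fold summed to 6048 CPM in untreated cells and 19700 CPM at 2 h, and those that fell at least 2-fold summed to 2927 and 1262 CPM. Without the clone block, 1356 genes (9.56%) were higher and 942 (6.64%) lower. With upper-quartile scaling, which put the median of all genes at -0.11 in place of -0.02, the split was 1919 (13.5%) higher against 4013 (28.3%) lower. List counts from either of these fits, here and elsewhere, are to be read beside the shares of all genes in that fit.

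**Figure D1:**
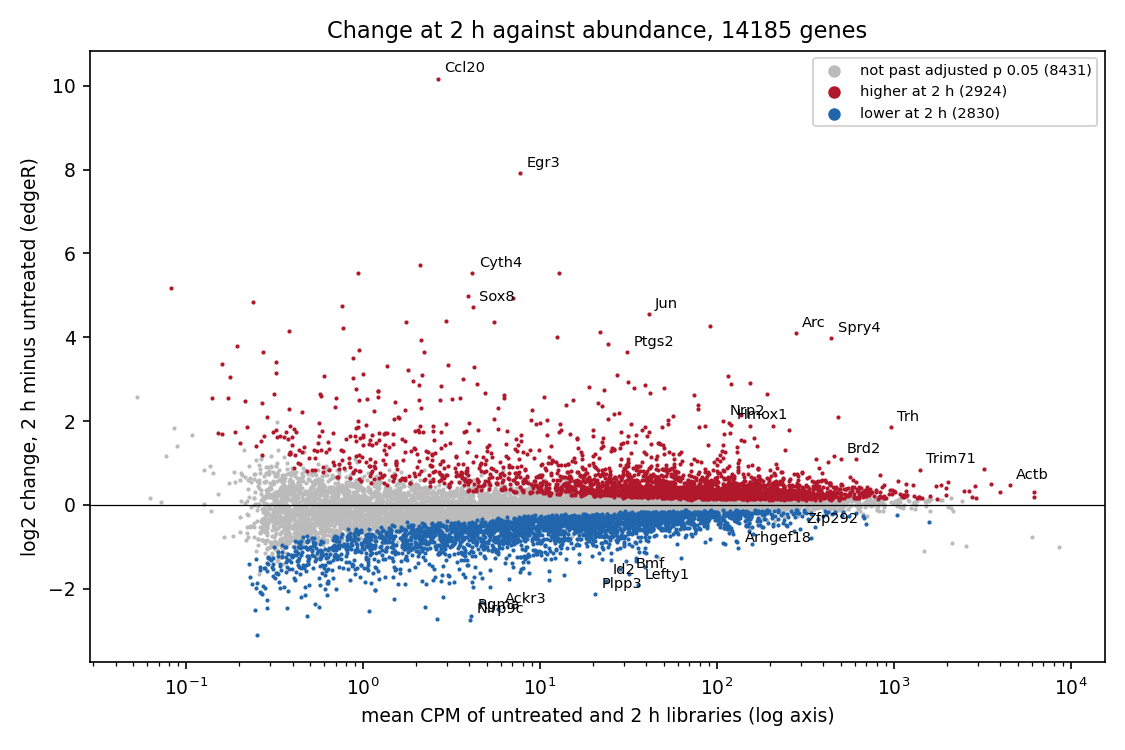
Log2 change at 2 h (edgeR, vertical axis) against the mean CPM of the untreated and 2 h libraries (horizontal log axis), 1 point per tested gene, red for 2924 higher, blue for 2830 lower and grey for 8431 genes not past an adjusted p of 0.05. Rises reach a fitted 10.17 for Ccl20, which had 0 untreated counts, so that this value depends on the prior count of the fit, while the named falls end at -2.74 (Nlrp9c) and lie mostly below 100 CPM.

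The classic targets, a list of 75 immediate-early, feedback and ETS-type genes, are given only as a reference. Of 69 tested members 52 rose and 3 fell, with a median log2 change of 1.22, against the 20.6% and 20% of all tested genes. Dusp6, a phosphatase that acts on ERK, stood at 48.9, 53.6 and 56.3 CPM untreated against 291, 309 and 400.5 CPM at 2 h, a log2 change of 2.64 ± 0.09, adjusted p = 2.0e-07. The 3 members that fell were Lif, the cytokine that supports these cells (-0.74 ± 0.27, adjusted p = 0.044), Dusp7, another phosphatase of the family (-0.45 ± 0.16, adjusted p = 0.044), and the ephrin receptor gene Epha4 (-0.43 ± 0.07, adjusted p = 0.0014). Lif went from 1.76 ± 0.421 to 1.04 ± 0.2795 CPM (mean ± SD, n = 3 here and below). These 3 falls were not past the threshold without the clone block, with adjusted p of 0.073 for Lif, 0.13 for Dusp7 and 0.12 for Epha4. In a fit to the 6 libraries alone, Lif (adjusted p = 0.079) and Dusp7 (adjusted p = 0.062) were not past it either. Nor were Lif with DESeq2 (adjusted p = 0.084) and Dusp7 with limma-voom (adjusted p = 0.064) or with no filter on low counts (adjusted p = 0.053). Leaving out 1 library also ended calls: Dusp7 without untreated clone b (adjusted p = 0.21) or untreated clone c (adjusted p = 0.16) or 2 h clone a (adjusted p = 0.071) or 2 h clone b (adjusted p = 0.12) or 2 h clone c (adjusted p = 0.15), Lif without untreated clone a (adjusted p = 0.07) or untreated clone b (adjusted p = 0.18) or 2 h clone a (adjusted p = 0.055) or 2 h clone b (adjusted p = 0.22) or 2 h clone c (adjusted p = 0.058).

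Among the rises outside that list, the largest was in Ccl20, a chemokine that attracts CCR6-bearing cells (chr1:83116800-83119200, GRCm38, plus strand). It had 0 counts in all 3 untreated libraries and 68, 266 and 116 counts at 2 h. Measured against 3 counts over the untreated group, it was at least 155-fold higher, and its adjusted p was 8.4e-05. Grm6, a metabotropic glutamate receptor gene, also had 0 untreated counts, had 14 at 2 h, and was at least 4.84-fold higher by the same floor. Its 2 h libraries held 3, 7 and 4 counts, under the filter's minimum of 10. It was tested only because its 4 h libraries, outside this comparison, held 40, 109 and 84 counts. Exons of Grm6 overlap a predicted gene on the opposite strand, so its counts are uncertain. A further 8 genes that rose had 1 to 3 untreated counts in all. Cdx2, a caudal homeobox factor, went from 3 to 156 counts, 53.9 times as many (95% counting interval 18.1 to 264). The potassium channel gene Kcna1 went from 3 to 62 counts (21.4, interval 6.996 to 107), and Fgf16, a fibroblast growth factor, from 1 to 39. Kcna1 held 9, 39 and 14 counts at 2 h, so it too passed the filter only with libraries outside this comparison. Fgf16 held 10, 13 and 16 counts at 2 h and 5, 11 and 4 at 4 h. It passed the filter only through the 2 h libraries, in which it was high. These intervals and floors cover counting error only.

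Several of the other large rises were in genes for secreted signals and their receptors. Nppb, the gene of B-type natriuretic peptide, was at 0.401, 0.518 and 0.4498 CPM untreated against 3.29, 57.9 and 13.999 CPM at 2 h, with a log2 change of 5.52 ± 0.67, adjusted p = 0.00024. Clone b stood far above the others at 2 h, and no 2 h library overlapped an untreated one. Trh encodes the precursor of thyrotropin-releasing hormone and was abundant already, at 463, 313 and 467 CPM untreated against 1415, 1199 and 1899.7 CPM at 2 h, a log2 change of 1.86 ± 0.09, adjusted p = 1.2e-06. Npy, the gene of neuropeptide Y, rose by 3.23 ± 0.40, adjusted p = 0.00027, and Adrb1, a beta-adrenergic receptor gene, by 3.34 ± 0.22, adjusted p = 4.5e-06. Tnfrsf12a, the receptor for the cytokine TWEAK, rose from 5.42 ± 0.485 to 40.5 ± 22.04 CPM (2.75 ± 0.23, adjusted p = 2.4e-05). The guidance receptor gene Nrp2 was at 51.3, 35.2 and 39.1 CPM untreated against 128, 204 and 192 CPM at 2 h, and Sema3f, a ligand that binds neuropilin 2, was at 4.26, 3.34 and 5.85 CPM untreated against 16.7, 26.9 and 34.9 CPM at 2 h. Their log2 changes were 2.01 ± 0.25, adjusted p = 0.00028, and 2.51 ± 0.18, adjusted p = 1.0e-05. Of the list of semaphorins, slits, netrins and their receptors, 6 of 40 rose and 5 fell, so these 2 genes stand in a list whose share of rises, 15.000%, is under the 20.6% of all genes. With upper-quartile scaling 5 rose and 7 fell in it.

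Other rises were in enzymes, transcription factors and regulators of small GTPases. Ptgs2, the inducible cyclooxygenase of prostaglandin synthesis, was at 5.37, 4.06 and 3.32 CPM untreated against 35.5, 79.4 and 58.5 CPM at 2 h (3.63 ± 0.34, adjusted p = 6.1e-05). The neural crest factor gene Sox8 was at 0.247, 0.239 and 0.381 CPM untreated against 4.29, 10.02 and 9.97 CPM at 2 h, a log2 change of 4.72 ± 0.27, adjusted p = 3.3e-06, and every 2 h value lay above every untreated one. Cyth4, an exchange factor for ARF GTPases, was at 0.185, 0.159 and 0.104 CPM untreated against 2.18, 15.7 and 6.63 CPM at 2 h (5.54 ± 0.47, adjusted p = 2.8e-05). Rrad, a RAS-related GTPase that acts on calcium channels, rose by 4.97 ± 0.34, adjusted p = 5.3e-06, and Rasl11a, another RAS-like GTPase, by 2.58 ± 0.12, adjusted p = 7.8e-07. Sfn, the 14-3-3 sigma protein, rose from 11.7 ± 3.88 to 88.9 ± 58.5 CPM (2.78 ± 0.20, adjusted p = 8.4e-06). Lor encodes loricrin of the cornified envelope of skin and rose by 5.72 ± 0.59, adjusted p = 0.0001, S100a3 by 4.36 ± 0.40, adjusted p = 5.0e-05 and the warm-sensing channel gene Trpv3 by 3.300 ± 0.44, adjusted p = 0.00038. Rhbdf1, which regulates shedding of growth factors such as EGF receptor ligands, rose from 7.18 ± 2.03 to 37.9 ± 16.96 CPM (2.35 ± 0.11, adjusted p = 7.8e-07). Among transporters, Slc26a2, a sulphate carrier, rose by 2.15 ± 0.25, adjusted p = 0.00017, and Slc39a14, a zinc and iron carrier, by 1.701 ± 0.09, adjusted p = 2.1e-06. Of these genes, Sox8, Rrad and S100a3 have exons that overlap those of another annotated gene, so their counts are uncertain.

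Promoter sequences are shown for 4 genes that rose, to let a reader see the letters that the CArG and AP-1 motifs match in them. They run from 250 bases before to 50 bases after the gene start, 5′ to 3′ on the strand of the gene, from RefSeq on GRCm38.p6, and capitals mark the motif. CArG, the core of the serum response element, was searched by that name's form and matches 1.63% of 32851 promoters in the table, while the AP-1 form TGANTCA matches 7.81%, both strands searched. Dusp5, a nuclear phosphatase for ERK (chr19:53528895-53529194, plus strand), has 2 adjacent CArG matches, and Nkx2-2, a homeobox factor of the ventral neural tube (chr2:147186353-147186652, minus strand), has 1. Plaur, the urokinase receptor (chr7:24462233-24462532, plus strand), and Trpv3 (chr11:73267270-73267569, plus strand) have 1 AP-1 match each.
Dusp5: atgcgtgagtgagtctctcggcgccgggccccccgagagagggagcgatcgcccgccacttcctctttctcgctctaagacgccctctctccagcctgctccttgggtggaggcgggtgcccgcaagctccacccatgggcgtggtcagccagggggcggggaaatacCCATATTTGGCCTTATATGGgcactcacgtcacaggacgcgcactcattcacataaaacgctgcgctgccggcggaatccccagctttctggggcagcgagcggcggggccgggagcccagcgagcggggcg
Nkx2-2: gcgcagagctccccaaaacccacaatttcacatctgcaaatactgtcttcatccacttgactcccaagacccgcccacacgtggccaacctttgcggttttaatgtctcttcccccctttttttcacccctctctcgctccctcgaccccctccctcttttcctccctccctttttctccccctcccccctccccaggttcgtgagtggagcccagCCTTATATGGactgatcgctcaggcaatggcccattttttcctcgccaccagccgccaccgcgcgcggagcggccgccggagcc
Plaur: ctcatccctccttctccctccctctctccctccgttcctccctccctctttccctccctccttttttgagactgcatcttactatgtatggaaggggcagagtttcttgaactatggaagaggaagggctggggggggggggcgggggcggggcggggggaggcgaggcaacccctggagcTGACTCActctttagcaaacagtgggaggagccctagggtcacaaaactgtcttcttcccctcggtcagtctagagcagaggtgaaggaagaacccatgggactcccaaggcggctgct
Trpv3: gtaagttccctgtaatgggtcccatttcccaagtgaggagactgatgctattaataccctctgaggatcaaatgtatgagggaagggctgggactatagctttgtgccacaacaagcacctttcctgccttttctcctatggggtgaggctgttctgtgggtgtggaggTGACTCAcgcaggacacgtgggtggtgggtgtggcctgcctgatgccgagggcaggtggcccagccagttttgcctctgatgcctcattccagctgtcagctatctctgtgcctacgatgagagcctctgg
The CArG matches begin 82 and 72 bases before the Dusp5 start and 34 before the Nkx2-2 start. The AP-1 matches begin 69 bases before the Plaur start and 81 before the Trpv3 start. Dusp5 was at 5.09, 5.25 and 5.95 CPM untreated against 28.6, 59.3 and 58.7 CPM at 2 h (3.09 ± 0.29, adjusted p = 6.1e-05), Plaur at 18.6, 24.6 and 22.9 CPM untreated against 94.6, 318 and 217 CPM at 2 h (3.07 ± 0.22, adjusted p = 9.3e-06), and Nkx2-2 at 0.278, 0.159 and 0.138 CPM untreated against 1.11, 2.43 and 1.92 CPM at 2 h (3.12 ± 0.45, adjusted p = 0.00056). A match is a description of the letters and no evidence of binding. Shares of motifs over the higher and lower genes are not given, because promoters were found for only 69.1% of genes at least 2-fold higher and 73.5% of those at least 2-fold lower, under the 80% required. Dusp5 and Nkx2-2 also overlap exons of other annotated genes.

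The largest falls among genes of at least 1 CPM were in Nlrp9c and Rgma. Nlrp9c, a member of the NLR family, was at 6.57, 6.93 and 7.44 CPM untreated against 1.65, 0.787 and 0.855 CPM at 2 h, a log2 change of -2.74 ± 0.30, adjusted p = 0.00014 (chr7:26322500-26403700, GRCm38, minus strand). Rgma, a membrane-anchored co-receptor for BMP ligands, was at 7.34, 5.93 and 7.89 CPM untreated against 1.302, 0.855 and 1.25 CPM at 2 h, a log2 change of -2.64 ± 0.16, adjusted p = 3.4e-06 (chr7:73375500-73419900, GRCm38, plus strand). The groups did not overlap for either gene, which held for 429 of the 476 genes at least 2-fold lower. The same sign of change in all 3 clones was a condition of this ranking. Ackr3, an atypical receptor that takes up the chemokine CXCL12, was at 8.82, 9.47 and 11.2 CPM untreated against 2.34, 1.64 and 1.35 CPM at 2 h (-2.49 ± 0.33, adjusted p = 0.00041; chr1:90204000-90216800, GRCm38, plus strand). Kcnk3, a 2-pore potassium channel, was at 5.37, 3.86 and 4.498 CPM untreated against 1.7999, 0.992 and 0.427 CPM at 2 h (-2.19 ± 0.31, adjusted p = 0.00053). Il7, the gene of interleukin 7, was at 4.38, 4.14 and 4.32 CPM untreated against 1.72, 0.821 and 1.18 CPM at 2 h (-1.82 ± 0.25, adjusted p = 0.00043). Rgma, Kcnk3 and Il7 share exonic bases with other annotated genes. The plot of falling genes by library shows these per clone.

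Falls at higher counts carry more reads and are given next. Plpp3, a cell surface enzyme that removes phosphate from lipids such as lysophosphatidic acid, was at 31.03, 37.9 and 30.4 CPM untreated against 13.3, 4.41 and 6.34 CPM at 2 h, a log2 change of -2.12 ± 0.27, adjusted p = 0.00029 (chr4:105157000-105233000, GRCm38, plus strand). Id2, an inhibitor of bHLH transcription factors, was at 33.9, 41.8 and 34.9 CPM untreated against 12.4, 9.85 and 9.44 CPM at 2 h, with -1.81 ± 0.13, adjusted p = 1.0e-05 (chr12:25093800-25097100, GRCm38, minus strand). Bmf, a BH3-only member of the BCL2 family that promotes cell death, was at 47.998, 51.6 and 43.04 CPM untreated against 24.9, 12.2 and 11.8 CPM at 2 h (-1.66 ± 0.31, adjusted p = 0.0021; chr2:118529000-118550000, GRCm38, minus strand). In each of these 3 genes all 2 h libraries lay below all untreated libraries, and clone a fell the least. Prdm14, a PR-domain factor of naive pluripotency and germ cells, was at 57.9, 54.5 and 59.4 CPM untreated against 30.2, 14.6 and 20.2 CPM at 2 h (-1.47 ± 0.22, adjusted p = 0.00067; chr1:13113500-13127200, GRCm38, minus strand). Zfp60, a KRAB zinc finger gene, was at 92.8, 81.97 and 86.7 CPM untreated against 55.99, 25.2 and 33.6 CPM at 2 h (-1.27 ± 0.14, adjusted p = 0.00015), Fzd10, a receptor for WNT ligands, at 29.8, 36.8 and 37.99 CPM untreated against 12.7, 19.1 and 15.9 CPM at 2 h (-1.14 ± 0.13, adjusted p = 0.00015), and Gjb5, a connexin of gap junctions, at 23.3, 38.3 and 33.9 CPM untreated against 15.01, 11.3 and 12.7 CPM at 2 h (-1.303 ± 0.26, adjusted p = 0.003). Further members of the 20 largest falls of genes over 20 CPM were Pnma2 (-1.54 ± 0.31, adjusted p = 0.0033), the ARF-like GTPase gene Arl4a (-1.31 ± 0.10, adjusted p = 1.7e-05), the glycosyltransferase gene A4galt (-1.13 ± 0.19, adjusted p = 0.0013) and Tmem231, of the ciliary transition zone (-1.05 ± 0.24, adjusted p = 0.0067). Tbx3, a T-box factor of the naive network outside that set, was at 120.0, 139 and 175 CPM untreated against 83.4, 57.3 and 88.9 CPM at 2 h (-0.93 ± 0.11, adjusted p = 0.00026).

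**Figure D2:**
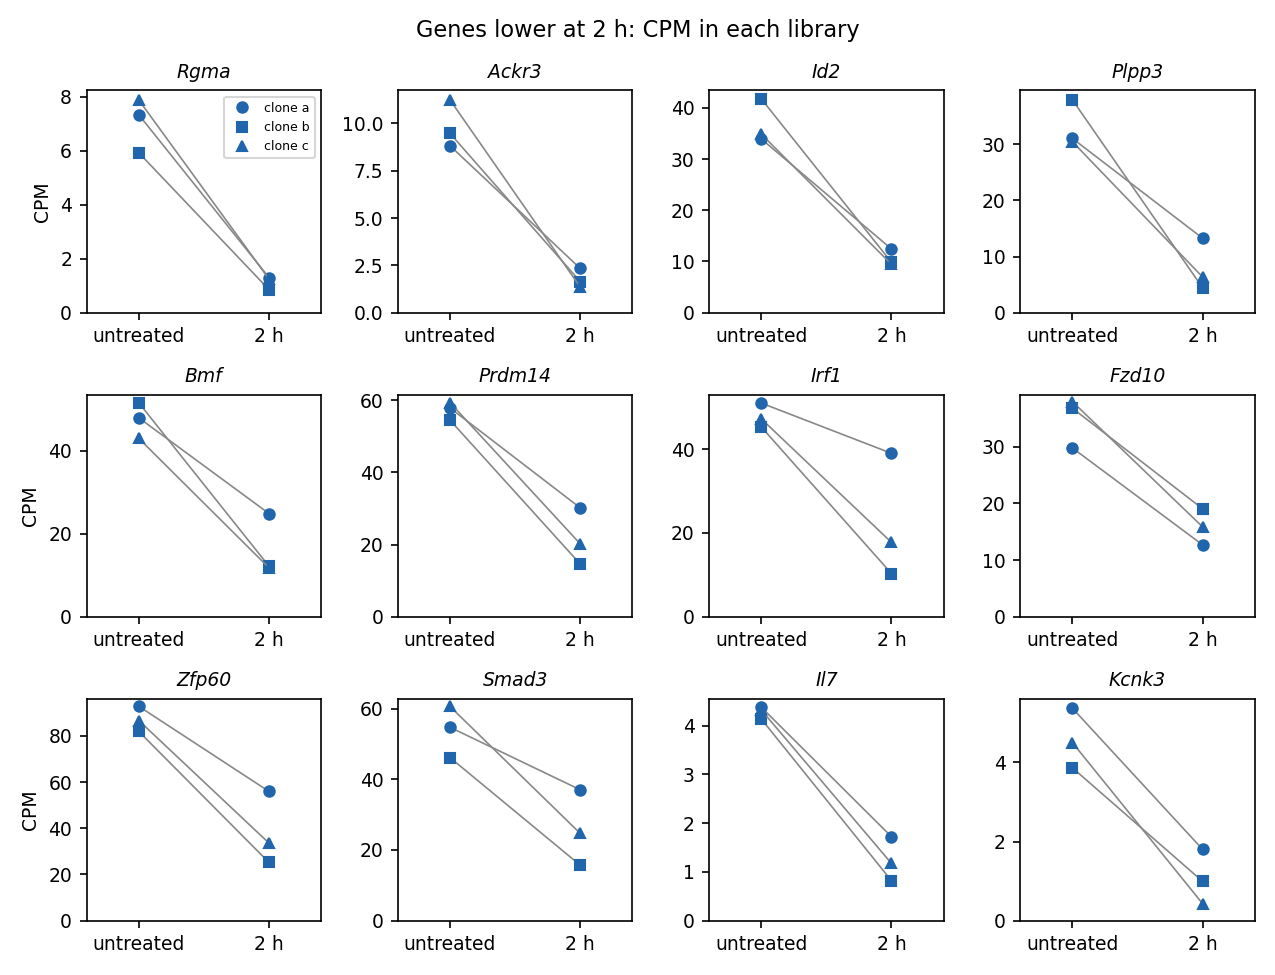
CPM (vertical axis, linear, from 0) in the untreated and 2 h libraries for 12 genes that fell, with 1 line and 1 marker shape per clone. In each gene the 3 values at 2 h lie below the 3 untreated values, for example 12.4, 9.85 and 9.44 CPM against 33.9, 41.8 and 34.9 CPM for Id2. The genes were picked for display, and falls that overlap, such as Lefty1, are not drawn. Such separation held for 18.2% of all tested genes and for 429 of the 476 genes at least 2-fold lower. Irf1 and Smad3 are among the falls that depended on the pairing of clones.

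A second group of falls depended on the pairing of clones. Lefty1, an inhibitor of NODAL, was at 76.96, 40.8 and 38.1 CPM untreated against 44.7, 3.797 and 11.1 CPM at 2 h, with a log2 change of -1.91 ± 0.50, adjusted p = 0.011. Its 2 h library of clone a lay above the untreated ones of clones b and c. Irf1, an interferon regulatory factor, was at 50.99, 45.3 and 47.2 CPM untreated against 38.99, 10.3 and 17.7 CPM at 2 h (-1.34 ± 0.29, adjusted p = 0.0051), and Smad3, a transducer of activin and TGF-beta, at 54.7, 46.1 and 60.6 CPM untreated against 37.03, 15.7 and 24.7 CPM at 2 h (-1.16 ± 0.30, adjusted p = 0.012). The MYC relative Mycl was at 54.4, 85.4 and 49.6 CPM untreated against 36.6, 26.99 and 19.7 CPM at 2 h (-1.23 ± 0.29, adjusted p = 0.0073), the ganglioside synthase gene St8sia1 at 49.9, 41.96 and 54.1 CPM untreated against 29.3, 13.7 and 21.3 CPM at 2 h (-1.26 ± 0.36, adjusted p = 0.017) and Bcl11a, a zinc finger repressor, at 9.32, 11.7 and 3.77 CPM untreated against 3.5999, 2.19 and 0.819 CPM at 2 h (-1.97 ± 0.29, adjusted p = 0.00062). Without the clone block the adjusted p was 0.36 for Lefty1, 0.18 for Irf1, 0.14 for Smad3, 0.068 for Mycl, 0.12 for St8sia1 and 0.064 for Bcl11a. Leaving out 1 library ended some of these calls: Lefty1 without 2 h clone b (adjusted p = 0.061), Smad3 without untreated clone b (adjusted p = 0.057) or untreated clone c (adjusted p = 0.051) or 2 h clone b (adjusted p = 0.055) or 2 h clone c (adjusted p = 0.059), St8sia1 without untreated clone b (adjusted p = 0.071) or untreated clone c (adjusted p = 0.071) or 2 h clone b (adjusted p = 0.072) or 2 h clone c (adjusted p = 0.068). Irf1, St8sia1 and Bcl11a overlap exons of other annotated genes.

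Zinc finger genes made up the largest list with more falls than rises. Of 351 tested members 46 rose and 174 fell, with a median log2 change of -0.28, while all tested genes had a median of -0.02 and 20% of them were lower. With no clone block 29 rose and 87 fell. Zfp292 was at 377, 363 and 328 CPM untreated against 255, 234 and 221 CPM at 2 h (-0.59 ± 0.06, adjusted p = 0.00012), Zfp607b at 54.4, 53.98 and 48.4 CPM untreated against 33.7, 19.3 and 21.8 CPM at 2 h (-1.12 ± 0.17, adjusted p = 0.00067), and Zfp182 at 28.6, 25.8 and 22.1 CPM untreated against 18.04, 14.6 and 13.7 CPM at 2 h (-0.72 ± 0.08, adjusted p = 0.00013). Zfp507 (-0.93 ± 0.09, adjusted p = 7.6e-05) and Zfp74 (-0.90 ± 0.09, adjusted p = 8.8e-05), both with exons that overlap other genes, fell too. Zfp536, a repressor of neural differentiation, fell from 6.45 ± 1.08 to 1.84 ± 0.626 CPM (-1.85 ± 0.27, adjusted p = 0.00067). The family name covers unlike proteins, and its risers included Zfp36, which binds AU-rich mRNA and hastens its decay, by 1.94 ± 0.15, adjusted p = 1.5e-05, and Zfp532 by 0.89 ± 0.06, adjusted p = 6.4e-06, both of which also overlap other genes. KRAB zinc finger genes are often near-identical and lie in clusters, so reads may be shared among them. In the related list of ZBTB factors, 6 of 35 tested members rose and 14 fell (median -0.19), with a fall in Zbtb25 (-1.299 ± 0.15, adjusted p = 0.00019) and rises in Zbtb46 (1.35 ± 0.13, adjusted p = 7.9e-05) and Zbtb2 (0.93 ± 0.12, adjusted p = 0.00037). In the TRIM family of ubiquitin ligases, 8 of 45 tested members rose and 15 fell (median -0.12), among them Trim13 (-0.56), Trim26 (-0.55) and Trim45 (-0.84) on the log2 scale. Trim71, which represses mRNAs in stem cells, rose from 993 ± 47.3 to 1818 ± 399 CPM (0.84 ± 0.10, adjusted p = 0.00025).

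Other transcription factor families held both directions, as did all tested genes, of which 20.6% were higher and 20% lower. Among forkhead factors, 5 of 24 tested members rose and 8 fell (median -0.14). Foxi3, a factor of the branchial arches, fell from 1.88 ± 0.276 to 0.462 ± 0.173 CPM (-2.04 ± 0.37, adjusted p = 0.0019), and Foxo3, a factor that AKT keeps out of the nucleus, was at 117, 131 and 121 CPM untreated against 89.9, 91.5 and 75.8 CPM at 2 h (-0.53 ± 0.11, adjusted p = 0.0033), while Foxn2 rose by 0.53 ± 0.12, adjusted p = 0.0053. Of 9 tested HOX genes 1 rose and 2 fell (median 0.15), and all 9 averaged under 10 CPM over the 6 libraries. Those that fell were the neighbours Hoxc12 (-2.02 ± 0.40, adjusted p = 0.0029) and Hoxc13 (-1.65 ± 0.24, adjusted p = 0.00059). Of 15 SOX factors 4 rose and 5 fell, with Sox13 at 1.37 ± 0.11, adjusted p = 1.9e-05 and Sox4 at 1.02 ± 0.19, adjusted p = 0.0023 among the risers. The ETS-family genes Elf3 of epithelia (-1.69 ± 0.16, adjusted p = 7.0e-05; exons overlap another gene) and Spic of macrophages (-1.57 ± 0.12, adjusted p = 1.4e-05) were among the 10 falls with the smallest p-values over genes of at least 1 CPM. Spic was at 18.9, 13.3 and 18.5 CPM untreated against 6.47, 3.93 and 6.77 CPM at 2 h. Mitf, the microphthalmia factor, was at 43.9, 50.7 and 57.5 CPM untreated against 30.8, 22.8 and 32.3 CPM at 2 h (-0.83 ± 0.14, adjusted p = 0.0011). Among circadian clock genes 8 of 21 tested members rose and 5 fell (median 0.15), with Hlf, a PAR-domain factor, at -1.48 ± 0.21, adjusted p = 0.00058, and the core clock activator Arntl at 1.21 ± 0.24, adjusted p = 0.0029, the latter with overlapping exons. Among nuclear receptors 6 of 28 tested members rose and 6 fell (median 0.01), shares near those of all genes, and the retinoic acid receptor gene Rarg was at 59.3, 79.1 and 67.02 CPM untreated against 117, 167 and 164 CPM at 2 h (1.12 ± 0.07, adjusted p = 4.4e-06).

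Potassium channels, orphan receptors, cytochrome P450 genes and regulators of G protein signalling had more members lower than higher, against 20.6% higher and 20% lower of all tested genes. Other lists with surface receptors were mixed, with 3 and 2 for integrins and 6 and 5 for the TNF superfamily (rises and falls). Adhesion G protein-coupled receptors had 2 and 3 of 16 tested members, and the lipid phosphate list had 5 and 9 of 33. For potassium channels, 5 of 59 tested members rose and 21 fell (median -0.27). With no clone block 3 rose and 5 fell. Kcnj12, an inward rectifier, fell from 10.3 ± 2.24 to 5.39 ± 1.37 CPM (-0.95 ± 0.16, adjusted p = 0.0015), as did Kcnab2, an auxiliary subunit with overlapping exons (-1.25 ± 0.19, adjusted p = 0.00068), while Kcnh8 rose from 9.86 ± 3.82 to 21.1 ± 4.03 CPM (1.11 ± 0.19, adjusted p = 0.0014). For orphan G protein-coupled receptors, whose ligands are mostly unknown, 2 of 33 tested members rose and 12 fell (median -0.41). Gpr19 fell from 30.9 ± 3.04 to 18.2 ± 2.799 CPM (-0.76 ± 0.08, adjusted p = 8.1e-05), Gpr20 (-1.797 ± 0.29, adjusted p = 0.0011) and Gpr139 (-2.72 ± 0.54, adjusted p = 0.0029) fell as well, and Gpr142 rose by 3.32 ± 0.34, adjusted p = 9.7e-05. For cytochrome P450 genes, which encode haem oxidases, 1 of 27 tested members rose and 9 fell (median -0.40). For regulators of G protein signalling 1 of 13 tested members rose and 5 fell (median -0.38). Without the clone block 1 rose and 3 fell for cytochrome P450 genes and 0 rose and 1 fell for regulators of G protein signalling. For orphan receptors these were 2 and 8, beside 9.56% higher and 6.64% lower of all tested genes in that fit. Of the tested members, 54 potassium channels, 26 orphan receptors, 25 cytochrome P450 genes and 11 regulators of G protein signalling averaged under 10 CPM over the 6 libraries, a range in which all tested genes were also more often lower than higher, as given with the abundance classes.

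**Figure D3:**
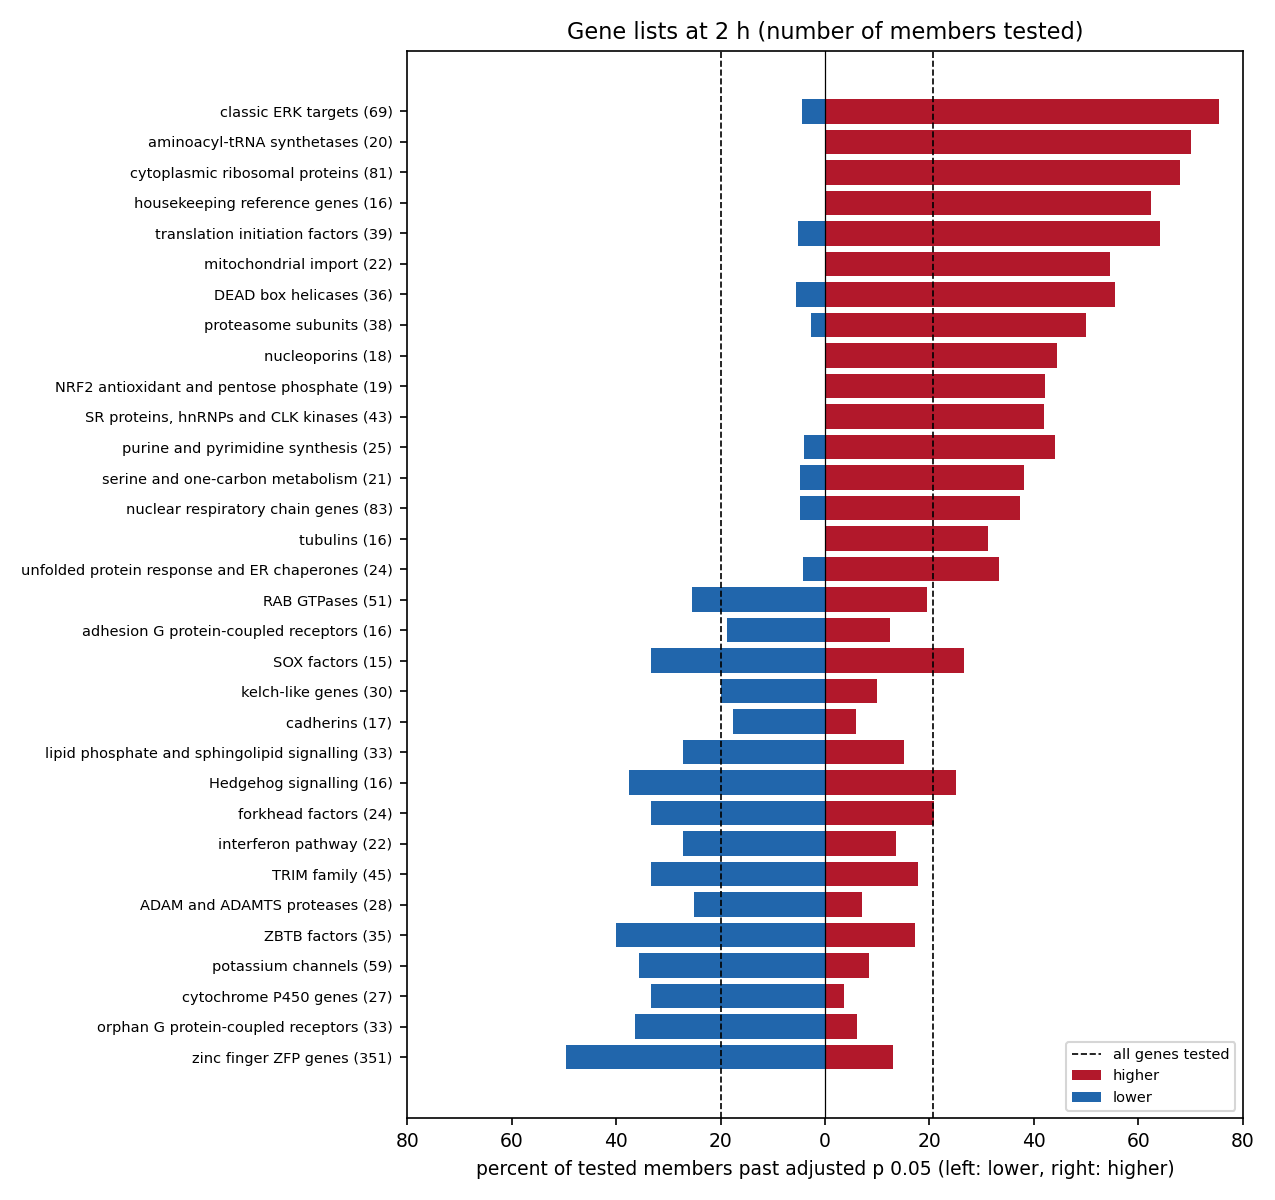
Percent of tested members called higher (red, right) and lower (blue, left) at an adjusted p of 0.05, for the 32 lists of at least 15 tested members with the most negative and most positive balance among the lists reported here, with the number tested in parentheses. Dashed lines mark the 20.6% higher and 20% lower of all tested genes, which zinc finger genes pass on the lower side and ribosomal protein genes on the higher side.

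Genes of the BMP and TGF-beta pathway were called in both directions. In this list 14 of 41 tested members rose and 9 fell (median 0.09), against the 20.6% and 20% of all tested genes. Of the ligands, Bmp4 was at 16.6, 36.2 and 22.1 CPM untreated against 76.98, 163 and 153 CPM at 2 h, a log2 change of 2.39 ± 0.12, adjusted p = 1.2e-06, and its exons overlap a predicted gene. Of the co-receptors and receptors, Rgma fell as given above and Bmpr1b, a type I receptor, fell by 1.17 ± 0.16, adjusted p = 0.00047. Of the inhibitors, Smad7 was at 88.3, 83.4 and 103 CPM untreated against 171, 152 and 194 CPM at 2 h (0.91 ± 0.06, adjusted p = 4.4e-06), while Smad6, which acts on the BMP branch, was at 10.1, 8.36 and 12.04 CPM untreated against 6.74, 1.98 and 5.13 CPM at 2 h (-1.25 ± 0.27, adjusted p = 0.0044). The ID genes are standard targets of the pathway and did not move as one. Id1 was at 9.99, 12.5 and 9.999 CPM untreated against 41.3, 73.9 and 104 CPM at 2 h (2.67 ± 0.21, adjusted p = 1.8e-05) and Id3 at 4.78, 8.798 and 6.47 CPM untreated against 24.8, 39.6 and 43.8 CPM at 2 h (2.44 ± 0.13, adjusted p = 1.9e-06), against the fall in Id2. In all 3 clones Id1 and Id3 were higher and Id2 lower at 2 h, with no overlap between groups. Without the clone block the adjusted p was 0.07 for Bmpr1b and 0.12 for Smad6, and it stayed under 0.05 for the other genes of this paragraph.

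Chemokine, interferon and NF-kB lists each held named genes in both directions, with NF-kB shares near the 20.6% and 20% of all tested genes. Among 13 tested chemokines and receptors 4 rose and 4 fell. Beside the fall in Ackr3, its ligand gene Cxcl12 was at 0.925, 1.15 and 0.623 CPM untreated against 0.306, 0.376 and 0.249 CPM at 2 h (-1.51 ± 0.22, adjusted p = 0.00062), and Cxcr4, the signalling receptor for CXCL12, was at 4.23, 2.79 and 3.39 CPM untreated against 2.34, 1.33 and 1.71 CPM at 2 h (-0.96 ± 0.18, adjusted p = 0.0021). All 3 genes of this ligand and its receptors were thus lower, with no overlap between groups. In the interferon list 3 of 22 tested members rose and 6 fell (median -0.03). Stat2 was at 27.4, 27.5 and 31.9 CPM untreated against 21.6, 13.99 and 17.3 CPM at 2 h (-0.74 ± 0.14, adjusted p = 0.0027) and Irf9, its partner in the interferon-stimulated complex, at 19.4, 20.8 and 21.5 CPM untreated against 13.2, 11.01 and 13.5 CPM at 2 h (-0.72 ± 0.12, adjusted p = 0.0015; exons overlap Rnf31), while Ddx58, the RNA sensor RIG-I, rose by 0.40 ± 0.09, adjusted p = 0.0067. Among NF-kB genes 6 of 28 tested members rose and 6 fell (median 0.14): Nfkb1 rose by 0.79 ± 0.07, adjusted p = 4.1e-05 and Relb by 0.36 ± 0.08, adjusted p = 0.0063, while Birc2, an inhibitor of apoptosis with ubiquitin ligase activity, fell by 0.53 ± 0.06, adjusted p = 0.00018. Nfkbia, the inhibitor I-kappa-B alpha, fell from 22.3 ± 2.36 to 10.9 ± 5.81 CPM (-1.17 ± 0.24, adjusted p = 0.0037). The fit with no clone block gave an adjusted p of 0.057 for Cxcr4 and 0.14 for Nfkbia.

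The PI3K and RAS-like lists are given beside the 20.6% higher and 20% lower of all tested genes, and the RAS-like shares were near these. In the PI3K list 13 of 38 tested members rose and 10 fell (median 0.05), or 5 and 12 with upper-quartile scaling. Irs2 was at 23.1, 18.2 and 23.6 CPM untreated against 38.4, 83.9 and 68.6 CPM at 2 h (1.46 ± 0.27, adjusted p = 0.0021) and its relative Irs1, likewise an adaptor of the insulin receptor, at 3.21, 3.46 and 2.63 CPM untreated against 1.76, 1.505 and 0.962 CPM at 2 h (-1.15 ± 0.18, adjusted p = 0.00087), both with overlapping exons. Pik3r1, a regulatory subunit of PI3K, fell by 0.63 ± 0.09, adjusted p = 0.00058, and Akt1 rose by 0.72 ± 0.08, adjusted p = 0.00012 and Rictor, of the mTORC2 complex, by 0.56 ± 0.10, adjusted p = 0.0018. Among RAS-like GTPases and their regulators 8 of 36 tested members rose and 6 fell (median -0.03), or 6 and 8 with upper-quartile scaling, with Rasgef1a, an exchange factor, at 5.31, 4.86 and 5.09 CPM untreated against 1.84, 1.13 and 1.35 CPM at 2 h (-1.83 ± 0.18, adjusted p = 6.9e-05), and Rasgrp1, another, at -1.08 ± 0.13, adjusted p = 0.0002. Rasgef1a contains a microRNA gene in its exons.

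Genes of lipid, retinoid and hedgehog pathways were counted next. In the lipid phosphate list 5 of 33 tested members rose and 9 fell (median -0.12). The receptors for lysophosphatidic acid, a substrate of PLPP3, included Lpar1 (-0.72 ± 0.12, adjusted p = 0.0011) and Lpar3 (-1.495 ± 0.26, adjusted p = 0.0015), which fell, while Sgms2, a sphingomyelin synthase, rose from 16.9 ± 6.91 to 61.7 ± 15.9 CPM (1.86 ± 0.31, adjusted p = 0.0013). In the retinoid list 4 of 22 tested members rose and 3 fell (median 0.05), or 4 and 5 with upper-quartile scaling. Dhrs3, which reduces retinal to retinol, was at 5.27, 4.06 and 5.05 CPM untreated against 1.7999, 0.958 and 1.21 CPM at 2 h (-1.87 ± 0.18, adjusted p = 6.4e-05), and Rdh11, another retinal reductase, rose from 38.8 ± 4.72 to 69.03 ± 5.99 CPM (0.82 ± 0.10, adjusted p = 0.00023). In the hedgehog list 4 of 16 tested members rose and 6 fell (median -0.22), against the 20.6% and 20% of all tested genes. With upper-quartile scaling 2 rose and 9 fell, beside 13.5% higher and 28.3% lower of all genes in that fit. Without the clone block 1 rose and 2 fell, beside 9.56% higher and 6.64% lower. The receptor gene Ptch1 was at 241, 110.5 and 237 CPM untreated against 172, 68.99 and 129 CPM at 2 h (-0.69 ± 0.09, adjusted p = 0.00035), where clone b untreated lay under clones a and c at 2 h, and the effector Gli2 at 115, 80.97 and 149 CPM untreated against 83.6, 40.8 and 75.6 CPM at 2 h (-0.81 ± 0.15, adjusted p = 0.0024). Gli1, a target and effector of the pathway, was at 50.4, 51.2 and 71.6 CPM untreated against 74.03, 89.6 and 110.0 CPM at 2 h (0.66 ± 0.08, adjusted p = 0.00025) and has overlapping exons. Gpr161, a ciliary receptor that restrains the pathway, fell by 0.73 ± 0.14, adjusted p = 0.0031. The adjusted p without the clone block was 0.29 for Ptch1 and 0.15 for Gli2.

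Cell death, antioxidant and chromatin lists held few changes of 2-fold or more, and their counts stand beside the 20.6% higher and 20% lower of all tested genes. Of 15 BCL2-family genes 4 rose and 2 fell, or 3 and 5 with upper-quartile scaling. Against the fall in Bmf, Pmaip1, the BH3-only protein NOXA, was at 5.68, 6.57 and 6.82 CPM untreated against 16.05, 15.5 and 18.6 CPM at 2 h (1.402 ± 0.24, adjusted p = 0.0015). In the NRF2 antioxidant list 8 of 19 tested members rose and 0 fell (median 0.19), led by Hmox1, haem oxygenase 1, at 45.5, 46.3 and 50.7 CPM untreated against 106, 275 and 195 CPM at 2 h (1.896 ± 0.20, adjusted p = 0.00011). Among polycomb genes 11 of 34 tested members rose and 6 fell (median 0.10), or 7 and 7 with upper-quartile scaling: Cbx2 fell by 0.74 ± 0.13, adjusted p = 0.0014 and Epop rose by 0.55 ± 0.06, adjusted p = 0.00015. Among histone lysine methyltransferases and demethylases 13 of 42 tested members rose and 6 fell (median 0.12), or 6 and 9 with upper-quartile scaling; Setd1b rose by 1.05 ± 0.10, adjusted p = 6.4e-05, and Nsd1 fell by 0.30 ± 0.06, adjusted p = 0.0026. Brd2, a bromodomain reader of acetylated histones, was at 298, 327 and 312 CPM untreated against 479, 841 and 741 CPM at 2 h (1.09 ± 0.11, adjusted p = 9.8e-05), with exons that overlap other genes, while 14 of 36 transcription elongation genes rose and 4 fell, or 9 and 6 with upper-quartile scaling.

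Many genes of protein synthesis and other growth machinery rose, by small steps, in lists read here against the 20.6% higher and 20% lower of all tested genes. Of cytoplasmic ribosomal protein genes, 55 of 81 tested members rose and 0 fell (median 0.31). With upper-quartile scaling 41 rose and 1 fell, with a median of 0.21. Rps2 was at 49.97, 71.2 and 67.8 CPM untreated against 91.1, 122 and 114 CPM at 2 h (0.80 ± 0.10, adjusted p = 0.00026) and Rpsa at 161, 180.4 and 177 CPM untreated against 221, 295 and 252 CPM at 2 h (0.56 ± 0.07, adjusted p = 0.00021). Both contain or overlap small RNA genes. Rps7 rose by 0.38 ± 0.06, adjusted p = 0.00059. Many ribosomal protein genes have processed pseudogenes that can share their reads. For aminoacyl-tRNA synthetases, 14 of 20 tested members rose and 0 fell (median 0.21), as with Farsa (0.43 ± 0.05, adjusted p = 0.00014). For translation initiation factors, 25 of 39 tested members rose and 2 fell (median 0.20), with Eif5a at 0.37 ± 0.05, adjusted p = 0.00037 and Eif6 at 0.43 ± 0.06, adjusted p = 0.00054, whose exons overlap another gene. With upper-quartile scaling 16 rose and 3 fell, with a median of 0.11. Among proteasome subunits 19 of 38 tested members rose and 1 fell (median 0.17). Among DEAD box RNA helicases 20 of 36 tested members rose and 2 fell (median 0.20). Among genes of mitochondrial import 12 of 22 tested members rose and 0 fell (median 0.19). Among RNA polymerase II subunits 7 of 13 tested members rose and 0 fell (median 0.36). With upper-quartile scaling 9 synthetases rose and 1 fell, 12 proteasome subunits rose and 1 fell, 14 helicases rose and 5 fell, and 5 import genes and 6 polymerase subunits rose and 0 fell. Nuclear genes of the respiratory chain followed with 31 of 83 higher and 4 lower, and 17 and 9 with upper-quartile scaling. Mitochondrial ribosomal protein genes had 14 and 4 of 74 (6 and 13 with upper-quartile scaling), beside the 55 of 81 of the cytoplasmic ones, a difference that was not tested. Abundant genes in general were called higher more often, with 44.1% higher and 7.72% lower from 100 to 1000 CPM. The shares of higher members were 50% in the proteasome list, 54.5% in the import list and 37.3% in the respiratory chain list. Members that averaged at least 100 CPM over the 6 libraries numbered 44 ribosomal protein genes, 20 synthetases, 31 initiation factors, 29 proteasome subunits, 7 import genes and 25 respiratory chain genes. The part of abundance in these counts was not tested. Over these lists 1 gene rose at least 2-fold, the ribosomal stalk gene Rplp1 (log2 change 1.09 ± 0.26, adjusted p = 0.008), chosen for the text after its value had been seen. Its adjusted p without the clone block was 0.058 for Rplp1. Its call ended with 1 library left out: Rplp1 without 2 h clone c (adjusted p = 0.056).

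Among reference genes that are often taken as stable the calls were likewise rises. Of 16 tested, 10 rose and 0 fell, with a median of 0.25 on the log2 scale, beside 20.6% higher and 20% lower of all tested genes. Actb, cytoplasmic actin, was at 3409.6, 3927 and 4044 CPM untreated against 4628, 5629 and 5549 CPM at 2 h (0.47 ± 0.06, adjusted p = 0.00026), and Rplp0, a ribosomal stalk protein, rose by 0.42 ± 0.08, adjusted p = 0.0023 and Ppia, cyclophilin A, by 0.38 ± 0.06, adjusted p = 0.0014. With upper-quartile scaling 6 rose and 1 fell, with a median of 0.16. CPM are shares of each library, and no spike-in is named in the labels, so a change in all RNA per cell would not be seen here.

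The direction of change varied with abundance. Among 1934 genes that averaged under 1 CPM over the 12 libraries, 4.34% were higher and 15.6% lower. Among 3695 genes from 1 to 10 CPM the shares were 9.39% and 28.4%, and among 6022 genes from 10 to 100 CPM they were 22.7% and 21.4%. Of 2449 genes from 100 to 1000 CPM, 44.1% were higher and 7.72% lower, and of 85 genes at 1000 CPM or more, 51.8% and 1.18%. With upper-quartile scaling the class from 100 to 1000 CPM had 27.9% higher and 16.3% lower and that from 10 to 100 CPM 14.2% and 31.9%, and the order of the classes was the same for both shares. TMM scaling factors were 1.04 to 1.07 in untreated cells and 0.957 to 0.983 at 2 h, so they moved with the groups, and their part in this pattern was not tested.

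**Figure D4:**
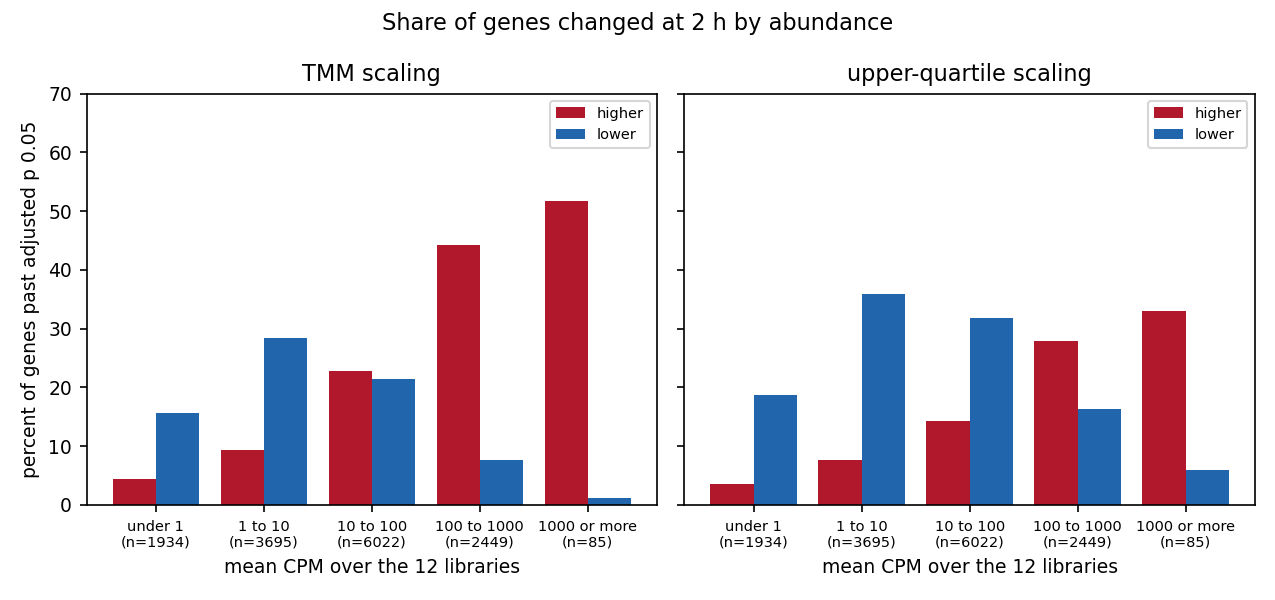
Percent of tested genes called higher (red) and lower (blue) at 2 h in 5 classes of mean CPM over the 12 libraries, with the number of genes under each class, for TMM scaling (left) and upper-quartile scaling (right). Higher genes go from 4.34% in the lowest class to 51.8% in the highest under TMM.

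Gene structure differed between the groups of genes as a description, without a test. Genes at least 2-fold higher had a median genomic span of 13485 bases and a median of 5 exons in their longest transcript. For genes at least 2-fold lower these were 24549 bases and 6 exons, and for all tested genes 25448 bases and 9 exons. Over all called genes, the median span was 17246 bases for higher and 34807 bases for lower genes, and the median summed exon length was 4121 and 4937 bases. The median untreated level was 1.67 CPM for genes at least 2-fold higher and 1.83 CPM for those at least 2-fold lower. Spans and exons are from GENCODE M21 on GRCm38, found for 99.0% of tested genes.

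The 3 clones changed by different amounts. Over all 14185 tested genes, 9352 had the same sign of change in each clone. Genes at least 2-fold higher or lower were chosen by their change in these clones, so their agreement in sign was largely set by that choice. Among the 375 genes at least 2-fold higher, 369 had the same sign in each clone. Their median log2 change in CPM was 1.16 in clone a, 1.92 in clone b and 1.59 in clone c. Clone b had the largest of the 3 changes in 262 genes and clone a the smallest in 299. Of the 476 genes at least 2-fold lower, 474 had the same sign in each clone, with medians of -0.84, -1.48 and -1.36. Clone b had the largest fall in 279 of these and clone a the smallest in 354. Plpp3 shows the order, from 31.03 to 13.3 CPM in clone a and from 37.9 to 4.41 CPM in clone b, while Rgma fell by similar amounts in the 3 clones, with log2 changes in CPM of -2.43, -2.69 and -2.59 in clones a, b and c. Esr1 encodes the oestrogen receptor, whose hormone-binding domain such constructs carry, and its symbol was at 9.44, 93.4 and 38.8 CPM untreated against 18.6, 217 and 40.6 CPM at 2 h, so clone a had the fewest and clone b the most. Whether these counts came from the construct was not tested, nor was their part in the clone order. Without all libraries of clone a the counts of called genes were 3640 higher and 3602 lower, and without those of clone c 798 and 348. Of 162 genes named here, 54 lost their call without clone c, Bmf, Irs1, Irs2, Stat2 and Gli2 among them.

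**Figure D5:**
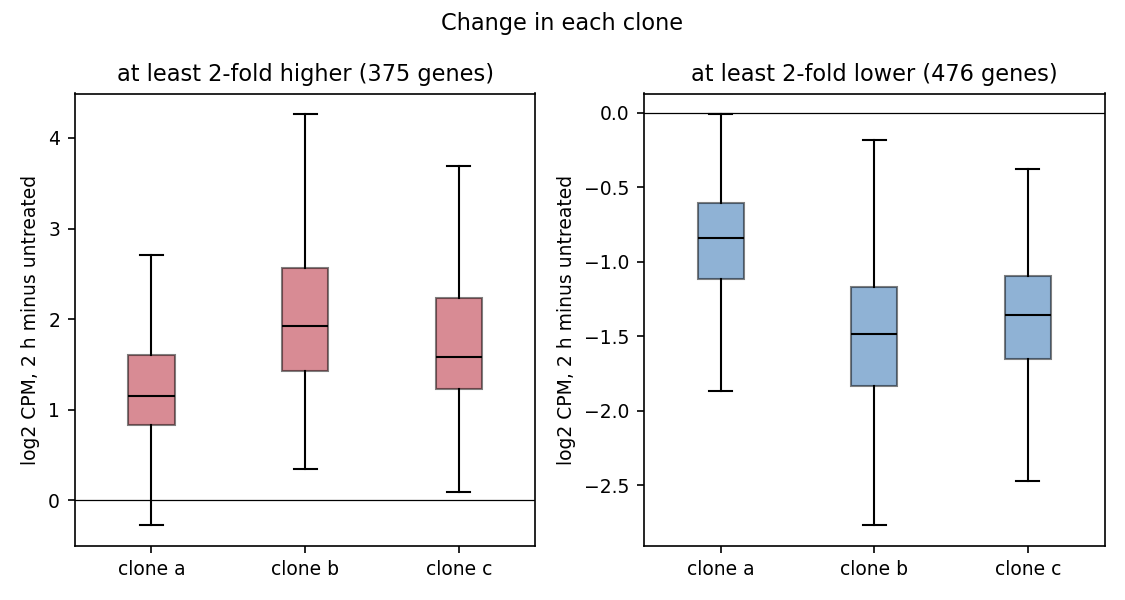
Log2 change in CPM from untreated to 2 h in each clone (boxes, median and quartiles; whiskers to the last value within 1.5 box lengths, values beyond not drawn), for the 375 genes at least 2-fold higher (left, red) and the 476 at least 2-fold lower (right, blue). Clone a lies nearest 0 on both sides, with medians of 1.16 and -0.84.

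Several lists had shares near or under the 20.6% and 20% of all tested genes. Of 243 tested solute carriers 43 rose and 47 fell. Notch genes had 5 higher and 6 lower of 29, RAB GTPases 10 and 13 of 51, and F-box genes 12 and 15 of 61. Kinesins, the motors of microtubules, had 9 and 9 of 37, although Kif5a fell from 35.2 ± 6.87 to 19.1 ± 3.46 CPM (-0.89 ± 0.18, adjusted p = 0.0031). MAP kinase cascade genes themselves had 9 and 10 of 46. With upper-quartile scaling 13.5% of all tested genes were higher and 28.3% lower. The counts in that fit were 29 and 62 for solute carriers, 3 and 6 for Notch genes and 5 and 17 for RAB GTPases. They were 8 and 22 for F-box genes, 6 and 17 for kinesins and 6 and 15 for MAP kinase cascade genes. In the last list Map4k4 rose by 0.49 ± 0.10, adjusted p = 0.0033, and Map2k6, an activator of p38, fell by 0.78 ± 0.19, adjusted p = 0.0081. Of the 14185 genes, 8431 were not past the threshold in either direction, among them Esrrb, a naive pluripotency factor, at 645, 722 and 762 CPM untreated against 726, 654 and 746 CPM at 2 h (log2 change -0.01 ± 0.11, adjusted p = 0.96).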

How the data were processed

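The file the authors deposited gives raw counts, 1 row for each gene symbol and 1 column for each of the 12 libraries. STAR, featureCounts, DESeq and mm10 are named in the submitters' processing notes. Tool versions, the annotation, the strand setting and the handling of multiply mapped reads: not given in the sources used here. Per the labels, total RNA was depleted of ribosomal RNA and prepared with the NEB Next Ultra 2 kit. Titles and series text give 4 times, but the stated treatment mentions 0 h and 2 h alone.

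Groups and clone letters came from the sample titles. Genes were kept by filterByExpr (minimum count 10, minimum total 15), scaled by TMM and fitted to all 12 libraries with 1 term per group and clone as a block (R 4.3.3 with edgeR 4.0.16 and limma 3.58.1). This left 6 residual degrees of freedom and a biological coefficient of variation of 0.0924, or 0.163 without the block. The contrast was tested 2-sided by the quasi-likelihood F test with Benjamini-Hochberg adjustment over 14185 genes at 0.05. SE was taken as the size of the log2 change over the square root of F and is approximate. The script was tested on simulated counts. Alternatives were other scalings and filters, the fit without the block, the 6 libraries alone, limma-voom, DESeq2 1.42.0, testing for more than a 1.5-fold change, and leaving out libraries or clones. CPM is mean ± SD (n = 3), and 1 count is 0.0327 to 0.0413 CPM in the 6 libraries.

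The clone letter is the same cell line at each time, so it pairs libraries. Libraries of 1 clone deviated together from their group means in 18 of 18 pairs (r 0.184 to 0.684). Pairs of different clones had r -0.568 to -0.024. Deviations from a group mean cancel within the group, so negative values between clones follow from positive ones within clones. They add no evidence of their own. No library in the 2 groups is a copy of another (chi-square over degrees of freedom 25.8 to 111). Nothing in the labels says that libraries of a group are more than separate clones. With clone as a block, differences in level between clones are taken out. The p-values rest on the spread that is left over all times, and they cover these clones only.

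The members and gene lists were chosen with earlier results of these data known. Named were the 30 largest rises and falls over 1 CPM and the 20 largest over 20 CPM with the same sign in 3 clones, the 10 smallest p-values per direction, and up to 4 members per direction and 3 not past the threshold from each list; the text gives a part of these, mostly ones whose call held without the block. Predicted genes, pseudogenes and date-like symbols were left out. Nanog, Esr1 and genes near 0 in untreated cells were added outside the rule. Against GENCODE M21, 25532 symbols matched 1 gene, 37 more than 1 and 328 none. Besides those stated, exons of Pou5f1, Tbx3, Trim71, Sox4, Gpr19, Tnfsf9, Tnfrsf18, Il6ra and Ppp1r18 overlap another gene, and without the strand setting their counts are uncertain. A list of long noncoding RNAs was not analysed here, and a few other lists are not reported here.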

Additional observations from a re-analysis of the deposited data

How the results depend on the processing

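Without the replicate block by clone, 1356 genes were higher and 942 lower, and each was also called in the same direction with the block. With upper-quartile scaling 1919 were higher and 4013 lower, and in a test against a 1.5-fold change 270 and 159. Leaving out 1 library gave 1864 to 3424 higher and 1516 to 3336 lower genes, and leaving out all libraries of 1 clone gave 798 to 3640 higher and 348 to 3602 lower, with the lowest counts without clone c. RLE size factors (3046 and 2728), no filter (3004 and 2530), a filter at 1 CPM in 3 libraries (2728 and 2868), the 6 libraries alone (2536 and 2559), DESeq2 (2925 and 2361) and limma-voom (2934 and 2830) stayed within 1.5 times of the 2924 and 2830 reported. No gene was called in opposite directions by the reported fit and any of these alternatives. The fit to the 6 libraries alone tested 160 of the 162 genes tracked by name. Of 162 genes tracked by name, 160 were past the threshold. Of these, 18 lost the call without the block, 1 to 7 with any 1 library left out and 54 without clone c. In the test against a 1.5-fold change 74 lost it. The text gives mostly genes whose call held without the block, so the 18 was largely set by that choice. Over all genes, 1356 and 942 calls were left without the block, of 2924 and 2830. None of the 162 changed sign while called. The cause was not tested. At these depths 1 count is at most 0.0413 CPM, so falls of genes under 1 CPM rest on few reads.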

Other observations

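Genes of the TNF and interleukin families, of the matrix and of phosphatase complexes were also counted. Their counts stand beside the 20.6% higher and 20% lower of all tested genes. In the TNF superfamily 6 of 18 tested members rose and 5 fell (median 0.05). The ligand genes Tnfsf9 (1.93 ± 0.25, adjusted p = 0.00035) and Tnfsf11, which encodes RANKL (2.06 ± 0.21, adjusted p = 8.8e-05), were higher, as was Tnfrsf10b, a receptor for the death ligand TRAIL (0.76 ± 0.12, adjusted p = 0.00095). Lower were the receptor genes Tnfrsf18 (-1.83 ± 0.37, adjusted p = 0.0033), Tnfrsf19 (-0.82 ± 0.09, adjusted p = 0.00011) and Tnfrsf1b (-0.68 ± 0.13, adjusted p = 0.0021). Among interleukins and their receptors 5 of 33 tested members rose and 4 fell (median -0.01), or 4 and 6 with upper-quartile scaling. The shares of 15.2% higher and 12.1% lower were under those of all tested genes. The subunits of the interleukin 6 receptor went apart: Il6ra was at 7.22, 7.52 and 11.1 CPM untreated against 17.8, 42.1 and 34.1 CPM at 2 h (1.77 ± 0.31, adjusted p = 0.0016), while Il6st, the gp130 subunit through which LIF also signals, was at 212, 207 and 198 CPM untreated against 163, 132 and 147 CPM at 2 h (-0.48 ± 0.06, adjusted p = 0.00035).

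For the matrix and phosphatase lists, too, 20.6% of all tested genes were higher and 20% lower. Of 28 tested collagen genes, 8 rose and 1 fell, and the risers were low: Col6a5 was at 0.679, 0.756 and 0.277 CPM untreated against 1.95, 4.86 and 1.89 CPM at 2 h (2.25 ± 0.42, adjusted p = 0.0021) and Col26a1 at 1.05, 0.518 and 0.865 CPM untreated against 1.38, 4.93 and 3.85 CPM at 2 h (1.89 ± 0.40, adjusted p = 0.0043). The integrin gene Itgb1, a shared beta subunit, was at 233, 200.3 and 204 CPM untreated against 297, 404 and 370.1 CPM at 2 h (0.72 ± 0.15, adjusted p = 0.0038), in a list where 3 of 23 tested members rose and 2 fell (median 0.22). The integrin shares, 13.0% higher and 8.7% lower, were under those of all tested genes. Among regulatory subunits of protein phosphatases 18 of 57 tested members rose and 10 fell (median 0.04), or 11 and 14 with upper-quartile scaling, with rises in Ppp1r18 (1.26 ± 0.10, adjusted p = 2.5e-05) and Ppp2r5a (0.50 ± 0.08, adjusted p = 0.0012) and falls in Ppp1r26 (-1.099 ± 0.23, adjusted p = 0.0038) and Ppp1r16b (-0.85 ± 0.17, adjusted p = 0.0035). Values are log2 changes from untreated to 2 h with the SE, and adjusted p-values are from edgeR's quasi-likelihood test.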
